A study of Rattus norvegicus with 6 samples.

Results

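Neural stem/progenitor cells (NSPCs) of the rat were compared between the carbon film of lowest and the carbon film of highest electrical conductivity, the Low film at 0.022 S/m and the High film at 3.22 S/m. The comparison is between 4 of the 6 libraries, Low replicates 1 and 2 and High replicates 1 and 2. The main test also drew on the libraries of the Medium film, of intermediate conductivity, to estimate the spread between replicates. The description covers 4929 of the 17041 gene rows that are not ribosomal RNA. These rows had at least 100 raw counts in both Low libraries or in both High libraries. The main test covered 7731 rows. The cells were wild type and came from the telencephalon of Sprague-Dawley embryos, with the tissue of several embryos dissociated together, and were grown as neurospheres. On both films they were kept for 24 h in medium that maintains stemness, and both films were coated and sterilized alike, the Low film having been oxidized for longer. The question addressed was how the RNA profile of the same cells differs between a film close to neural tissue in conductivity and one far above it. Nothing in the labels says that the libraries of a film came from separate cultures. The p-values therefore measure only the spread between libraries of the same film, taken over all 6 libraries, which may be technical. No untreated culture dish was among these libraries, so each film is given against the other.

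NSPCs divide in the presence of growth factors and can give rise to neurons, astrocytes and oligodendrocytes, a state marked by transcription factors such as Sox2 and intermediate filaments such as nestin and vimentin. Cells also carry inducible programmes that respond to damage. The factor NRF2 switches on heme oxygenase and the enzymes of glutathione and thioredoxin metabolism, HSF1 switches on cytosolic chaperones, ATF4 switches on amino acid transport and synthesis in the integrated stress response, and p53 switches on cell cycle inhibitors.

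RNA was read from the 3′ end of polyadenylated transcripts (QuantSeq), and each value is the number of reads on a gene row. Levels are given as CPM, the counts of a row scaled to a fixed library size, after TMM scaling, without the 7 ribosomal RNA rows. Total counts ran from 5412882 to 6213676 over the 4 libraries. Ribosomal RNA rows held 26.1% and 38.4% of the counts in High and 7.16% and 7.64% in Low, which left 3335578 to 5768888 counts for all other rows. The ribosomal share was higher in both High libraries than in both Low libraries, its part in the results was not tested, and the effects of film and of ribosomal share cannot be told apart. In bulk RNA, fewer cells of a type and less RNA per cell cannot be told apart either. The 100-count minimum stood for 17.7 and 20.5 CPM in Low and for 25.1 and 29.1 CPM in High.

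The label of the cells was compared with marker genes. Of 18 rows for neural stem cells and radial glia, 15 had enough counts to be tested, with Vim, Sox9, Sox2 and Nes read in all 4 libraries, while Msi1, Prom1 and Hes5 were at 0 in all of them. Microglial markers were nearly absent, with 10 of 13 rows at 0 in all 4 libraries and a summed level of 125 and 75.4 CPM in High and 30.8 and 45.7 CPM in Low. Meningeal and vascular markers were at 0 in 10 of 14 rows, with a summed level of 126 and 167 CPM in High and 63.7 and 24.8 CPM in Low, carried by Acta2, Tagln and Col1a1. Astrocyte markers summed to 381 and 400.1 CPM in High and 319 and 349.6 CPM in Low. These other cell types were thus faintly represented on both films, with the High libraries above the Low ones in each of the 3 sums.

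Libraries of the same film differed widely. The correlation of log2 CPM across rows was 0.568 between the High libraries and 0.588 between the Low libraries, against 0.511 to 0.561 between a Low and a High library. Rows within a library are not independent replicates, so these are descriptions. Of the rows with at least 100 counts in 1 Low library, 17.9% (1142 of 6383) had at most 3 counts in the other, and in High the share was 17.4% (1051 of 6025). Such rows had strong signal in one library and almost none in its replicate. The biological coefficient of variation was 1.43, from 1 common dispersion fitted over the 7731 rows tested in all 6 libraries, thinly read rows included. It does not describe a well-read row. In the 2968 rows with at least 100 counts in all 4 libraries, the median absolute log2 ratio between replicates was 0.58 in Low and 0.53 in High.

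The described rows fell into 4 classes. At least 100 counts in all 4 libraries were found for 2968 rows, 90 rows had at least 100 in both Low libraries and at most 3 in both High libraries, 52 rows had the opposite pattern, and 1819 rows lay between these. Among the 2968 rows, both Low libraries lay above both High libraries in 639 and below them in 609, and 1720 overlapped. Over all 7731 rows tested, these orders held for 19.5% and 18.0%, and the shares among the described rows with 100 counts in all libraries were 21.5% and 20.5%, close to that background. Near the minimum of 100 counts, Cox15, which assembles cytochrome c oxidase, just met it with 188 and 100 counts in Low beside 79 and 52 in High, and Unc119, a lipid-binding carrier protein, just missed it with 99 and 181 counts in Low beside 6 and 0 in High.

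From a mean of 300 counts upward, replicates and films both differed less in rows with more reads. In rows with a mean of 300 to 1000 counts, the median absolute log2 ratio was 0.73 between the Low libraries, 0.67 between the High libraries and 0.57 between the film means. At 100 to 300 counts these values were lower, at 0.67, 0.65 and 0.50. At 1000 to 3000 counts these values were 0.45, 0.37 and 0.44, and at 3000 counts or more 0.26, 0.24 and 0.28. A film mean averages 2 libraries and so varies less than a single library, and the film and replicate values are therefore not on the same footing and were not tested against each other. The share of rows with both Low libraries on top was 8.56% at 100 to 300 counts and 34.9% at 3000 counts or more, while the share with both at the bottom was 27.5% and 17.3%. The choice of rows sets part of this order. Because the Low libraries held more counts, 100 counts were 17.7 and 20.5 CPM in Low but 25.1 and 29.1 CPM in High, so that near the minimum rows with a lower level in High were left out.

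**Figure D1:**
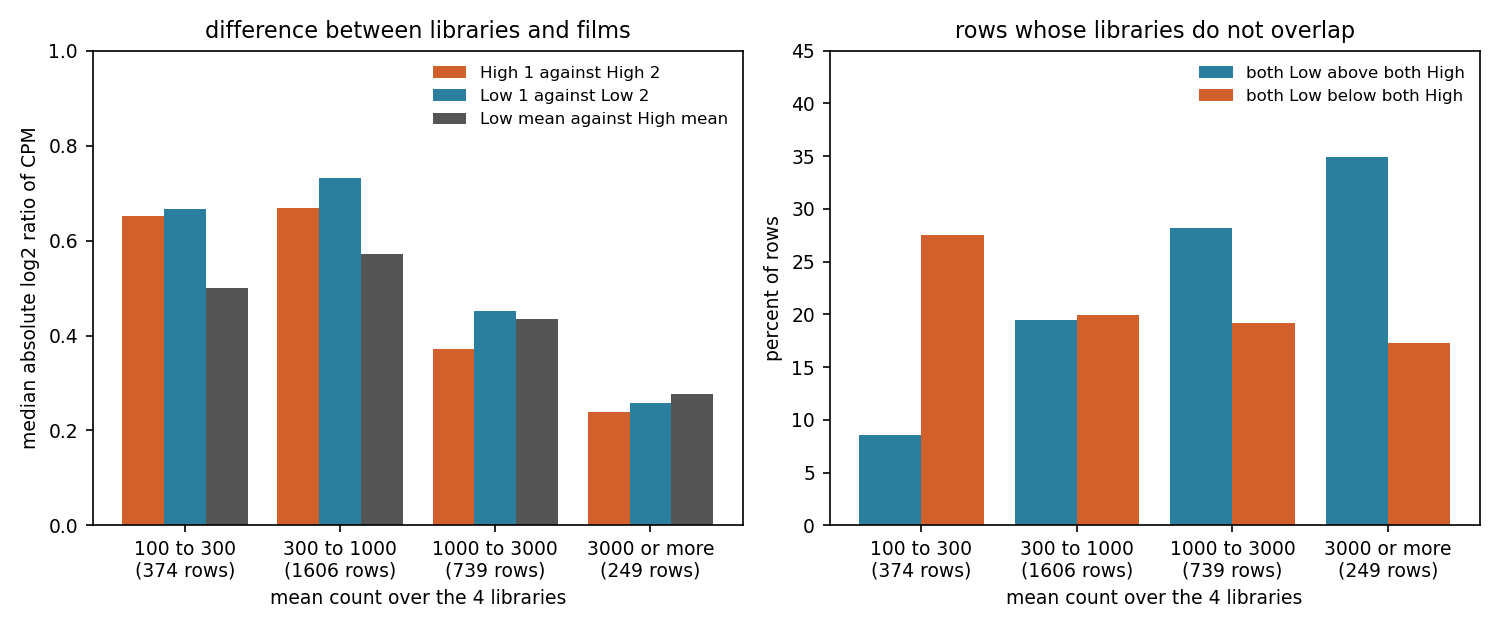
Left, median absolute log2 ratio of CPM (y axis) between the 2 High libraries, the 2 Low libraries and the film means, for the 2968 rows with at least 100 counts in all 4 libraries, by mean count (x axis). Right, percent of those rows whose Low libraries both lie above, or both below, the High libraries. In the left panel the bars of replicates and of films are lowest at 3000 counts or more, and in the right panel the share with Low on top grows from 8.56% to 34.9%, an order that the count minimum sets in part.

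Over all rows tested, 2 rows passed the test, and both were lower on the Low film. They were Hmox1, inducible heme oxygenase, which breaks down heme and is a classical NRF2 target, and Brd2, a BET protein that binds acetylated histones. This was 0.0259% of the 7731 rows tested with edgeR's quasi-likelihood test (adjusted p under 0.05). No row was called higher in Low, and 328 rows had an unadjusted p under 0.05, 198 higher and 130 lower. Counts by other tools ran from 19 rows with limma-voom (12 higher, 7 lower) to 287 with DESeq2 (142 higher, 145 lower).

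Hmox1 was measured at 6149.7 and 5749.6 CPM in the High libraries and 1028 and 1433 CPM in the Low libraries. Both High libraries were far above both Low libraries, and the libraries of a film differed far less than the films. It fell by 2.27 ± 0.22 (SE) on the log2 scale in Low, a 4.84-fold lower level (edgeR quasi-likelihood test, adjusted p = 0.00896). Brd2 stood at 1372 and 1169.6 CPM in High and 219.6 and 187 CPM in Low. Its Low libraries were again far below both High libraries, and it fell by 2.65 ± 0.32 on the log2 scale, 6.26-fold (edgeR, adjusted p = 0.0345). Both calls were lost when the described rows alone were tested (adjusted p = 0.0579 for each) and when the Low and High libraries alone entered the fit (adjusted p = 0.171 for each), with both directions kept. Over the 17 alternatives, the adjusted p ran from 6.99e-35 to 0.171 for Hmox1 and from 8.08e-25 to 0.171 for Brd2, each being called in 15.

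The promoter of Brd2 and that of Tuba1a, the row higher in Low with the smallest p, are shown as the 250 bases before the transcription start in RefSeq (GRCr8), since, by p, they are the first rows of either direction with a promoter in the table used and a short response element in it. Hmox1 had no entry there and was not searched. The stretch of Brd2 is chr20:4729829-4730078 on the plus strand and that of Tuba1a is chr7:131995820-131996069 on the minus strand, each written 5′ to 3′. Capitals mark TGACGTCA, the cyclic AMP response element that ATF and CREB factors bind, in Brd2, and a match to TGACNNNGC, the core of the antioxidant response element that NRF2 binds, in Tuba1a.
Brd2: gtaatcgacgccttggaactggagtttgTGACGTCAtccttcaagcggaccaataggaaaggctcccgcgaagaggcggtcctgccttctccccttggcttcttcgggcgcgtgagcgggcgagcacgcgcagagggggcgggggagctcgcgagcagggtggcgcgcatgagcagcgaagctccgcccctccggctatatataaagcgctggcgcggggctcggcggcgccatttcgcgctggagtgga
Tuba1a: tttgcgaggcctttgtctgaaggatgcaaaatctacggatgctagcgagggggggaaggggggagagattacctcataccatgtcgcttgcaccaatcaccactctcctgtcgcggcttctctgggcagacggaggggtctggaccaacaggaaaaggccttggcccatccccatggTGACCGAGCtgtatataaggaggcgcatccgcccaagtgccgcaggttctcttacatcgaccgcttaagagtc
The TGACGTCA of Brd2 lies 222 to 215 bases before the start and reads the same on both strands. It was present in 1.59% of 33465 rat promoters of this length. The match in Tuba1a lies 73 to 65 bases before the start, and TGACNNNGC was present in 10.1% of promoters on either strand. Cox7c and Basp1, the next rows in order of p, held no match to any of the 4 motifs searched, the others being GAANNTTC of heat shock elements (7.23% of promoters) and TGATGNAA, a C/EBP-ATF element (3.40%). Among the rows of smallest p in each direction given next, 9 higher and 9 lower had a promoter in the table. TGACNNNGC was in 2 of the 9 higher rows (Dhx9 and Tuba1a) and in 2 of the 9 lower rows (Cdkn1a and Slc3a2). TGACGTCA was found only among the lower rows (Brd2 and Hsp90ab1), GAANNTTC in Hsph1, and TGATGNAA in none. A match is a description of the letters and not of a factor bound there.

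To see past the noise of thinly read rows, the test was repeated on the 1013 rows with a mean of at least 1000 counts over the 6 libraries, a filter chosen after seeing the data. In this fit 12 rows (1.18%) were called higher in Low and 12 rows (1.18%) lower. The lower rows were the same 12 as those of smallest p among rows with 100 counts in all libraries and no overlap, and 11 of the 12 higher rows were among the corresponding 12. At a mean of at least 300 counts, also chosen after seeing the data, 2 rows were called, Hmox1 and Brd2. Apart from these, none of the rows given next passed the test over all 7731 rows, where their adjusted p ran from 0.0871 to 0.45. The fold changes and SEs given for them come from the fit over all rows, also beside an adjusted p of the filtered fit.

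**Figure D2:**
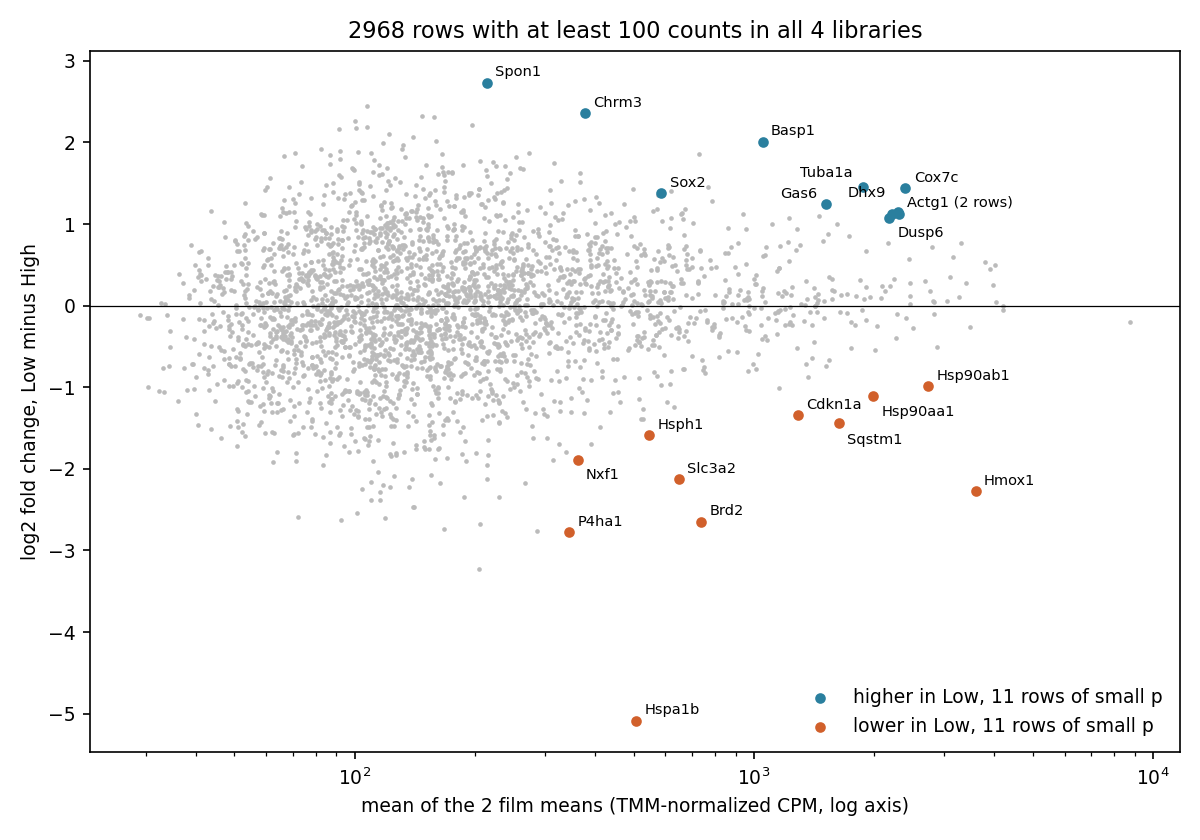
Log2 fold change of Low minus High (y axis) against the mean of the 2 film means in TMM-normalized CPM (x axis, log scale) for the 2968 rows with at least 100 counts in all 4 libraries. Of the 12 rows of smallest p in each direction, 11 are coloured and named. Hmox1 and Brd2 sit at -2.27 and -2.65, Hspa1b at -5.08 is the lowest, and the named higher rows lie between 1.08 and 2.73.

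The lower rows included several chaperones and other stress-inducible genes. Hspa1b, an inducible HSP70 chaperone, gave 1234 and 733 CPM in High and 32.7 and 25.2 CPM in Low. Its log2 fold change was -5.08 ± 0.96 (edgeR adjusted p = 0.0101 in the filtered fit) and the Low libraries held a small fraction of the level of either High library. Because reads with several alignments were counted, Hspa1b cannot be fully separated from its near-identical neighbour Hspa1a, which had 202 and 108 CPM in High and 0 and 17.8 CPM in Low. Both HSP90 genes and the HSP110 chaperone Hsph1 were also below in both Low libraries. Hsp90aa1, the inducible HSP90, was at 2648 and 2775 CPM in High and 1096 and 1431 CPM in Low (-1.10 ± 0.23), and Hsp90ab1, the constitutive one, at 3498 and 3749 CPM in High against 1798 and 1861 CPM in Low (-0.99 ± 0.19). Hsph1 had 917 and 719.7 CPM in High and 272 and 273 CPM in Low (-1.59 ± 0.34). No Low library of these chaperones reached a High one. Hspa1b, Hsph1 and the HSP90 genes were chosen for no overlap and small p, which fixed this order and favoured replicates closer than films.

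Beside the chaperones stood genes of autophagy, the cell cycle and amino acid uptake. Sqstm1, the p62 autophagy receptor and an NRF2 target, measured 2386 and 2376 CPM in High and 803 and 956 CPM in Low, a log2 fold change of -1.44 ± 0.24 (adjusted p = 0.00687 in the filtered edgeR fit). Cdkn1a, the p21 inhibitor of cyclin-dependent kinases and a main p53 target, measured 1955 and 1748 CPM in High against 628 and 833 CPM in Low (-1.34 ± 0.26). Slc3a2, the heavy chain of amino acid transporters, measured 1406 and 703 CPM in High against 299 and 183 CPM in Low (-2.13 ± 0.44). The ratio between the High libraries of Slc3a2 was nearly as large as that between the nearest libraries of the films, and their gap in CPM was larger. The High libraries of Sqstm1 were almost equal. P4ha1, a collagen prolyl hydroxylase induced in hypoxia, gave 367 and 837 CPM in High and 108 and 67 CPM in Low (-2.78 ± 0.60). Nxf1, the mRNA export receptor, gave 465 and 675 CPM in High against 146 and 162 CPM in Low (-1.89 ± 0.44). In the filtered fit the adjusted p of P4ha1 and Nxf1 was 0.0252 and 0.0383 by edgeR, and they were called in 8 and 3 of the 17 alternatives.

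The row higher in Low with the smallest p was Tuba1a, and others encode proteins of the cytoskeleton. Tuba1a, the alpha-tubulin of developing neurons, had 1079.9 and 924 CPM in High and 2664 and 2821 CPM in Low, and Basp1, a growth cone membrane protein, had 433 and 404 CPM in High against 1835 and 1535 CPM in Low. Their log2 fold changes were 1.45 ± 0.21 and 2.01 ± 0.30 (edgeR adjusted p = 0.00501 and 0.00687 in the filtered fit). Both Low libraries were above both High libraries, an order that the choice of rows fixed. Gamma-actin, Actg1, is held in 2 rows that share reads, the first at 1398 and 1504 CPM in High and 3141 and 3201 CPM in Low and the second at 1352 and 1431 CPM in High against 3027 and 3053 CPM in Low. Either row had a log2 fold change of 1.13 ± 0.19. Sox2, the stem cell transcription factor, stood at 327 and 325 CPM in High and 861 and 834 CPM in Low (1.38 ± 0.29). Its replicates were nearly equal on either film, but it passed in neither fit (adjusted p = 0.0677 in the filtered one) and in 1 of the 17 alternatives.

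Several of the other higher rows encode signalling or secreted proteins. Gas6, a ligand of the TAM receptor kinases, was at 874 and 925 CPM in High and 2135 and 2119 CPM in Low (1.24 ± 0.21), and Spon1, the matrix protein F-spondin, at 52.6 and 59.4 CPM in High against 402 and 343 CPM in Low (2.73 ± 0.52). Chrm3, the M3 muscarinic receptor that releases calcium from stores, had 148 and 99 CPM in High and 750.0 and 514 CPM in Low (2.36 ± 0.40). Spon1 and Chrm3 had the largest ratios of the higher rows in the plot of levels by library. Dusp6, the phosphatase that restrains ERK, measured 1386 and 1420.0 CPM in High against 3348 and 2565 CPM in Low (1.08 ± 0.21). Cox7c, a subunit of cytochrome c oxidase, gave 1226 and 1354 CPM in High and 3979 and 3021 CPM in Low (1.44 ± 0.21), and Dhx9, an RNA helicase, 1736 and 1109 CPM in High against 2893 and 3419.9 CPM in Low (1.15 ± 0.24). All of these passed in the filtered edgeR fit, with adjusted p from 0.00687 (Cox7c) to 0.0238 (Dusp6). Also called there, with a larger ratio than Spon1, was Mmp15, a membrane-type metalloproteinase, at 95.7 and 19.5 CPM in High and 431 and 428 CPM in Low. A High library of Mmp15 held 67 counts, which kept it out of the rows with 100 counts in all libraries. Over the 17 alternatives, the adjusted p of the rows named beside Hmox1 and Brd2 ran from 6.98e-16 (Tuba1a with DESeq2) to 1 (P4ha1 and Nxf1).

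**Figure D3:**
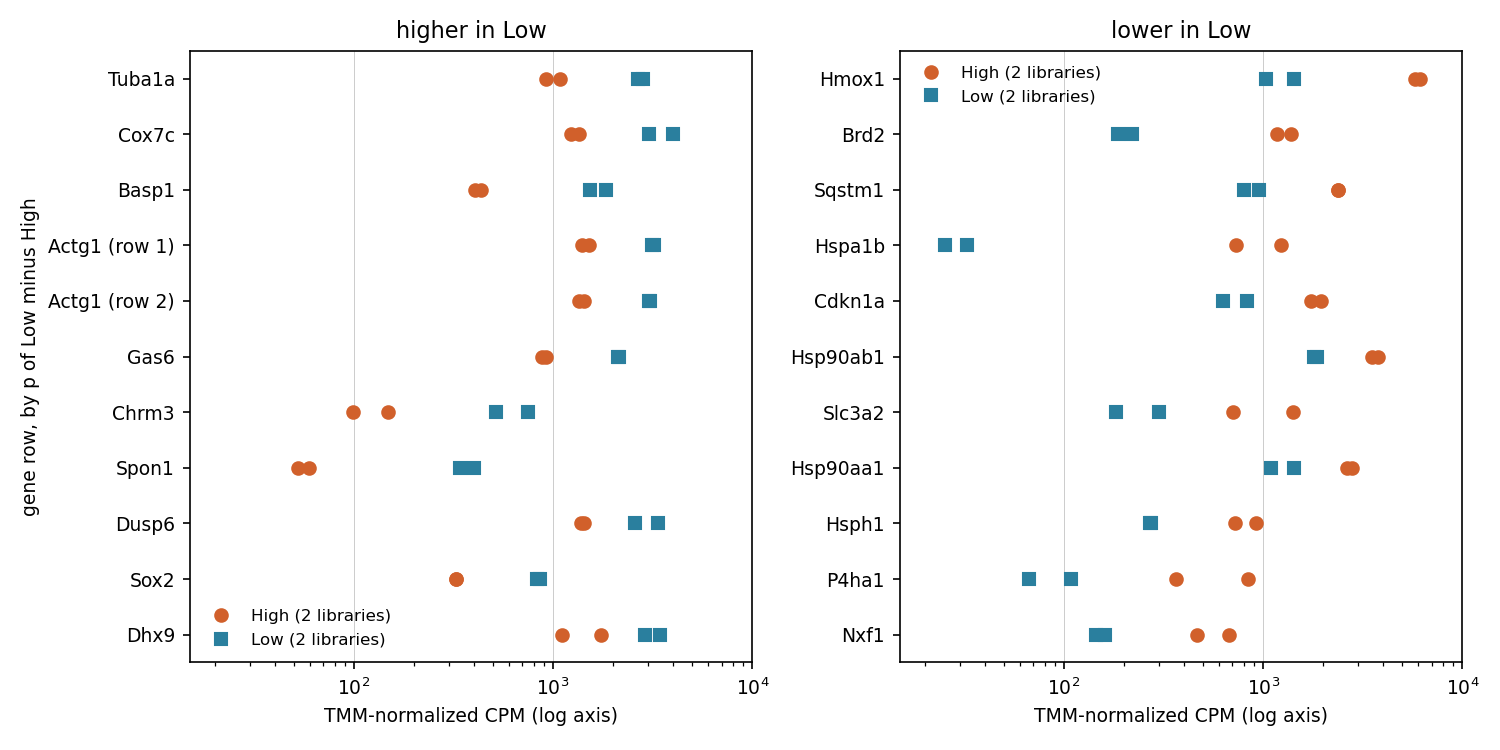
TMM-normalized CPM (x axis, log scale) of each library for 11 of the 12 rows of smallest p higher in Low (left) and lower in Low (right), with circles for the 2 High and squares for the 2 Low libraries. No row overlaps between films, which the choice of rows fixed, and replicates of a film often cover each other, as for Sox2 and Hsph1.

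Whole gene lists were then read by how many members had both Low libraries on one side, against 19.5% above and 18.0% below over all rows tested. Each list's median is the log2 ratio of Low to High film means with each library raised to at least 3 counts, for which all rows tested had a median of 0.017. Lists and members were chosen with earlier results of these data known, and several lists hold rows given above for no overlap and small p. A share above the background is therefore not independent evidence. Lists of stress-inducible genes had more members below than the background. For NRF2 and heme targets 10 of 22 rows (45.5%) lay below and 3 above, with a median of -0.98. The cytosolic heat shock list had 11 of 18 rows (61.1%) below and 3 above (median -0.82), and the integrated stress response list 11 of 21 (52.4%) below and 1 above (median -1.06). The heat shock rows below are not all separate genes. They included rows 1 and 2 of Hspa8, of similar counts, whose row 3 overlapped, and both Hspa1a and its near-identical neighbour Hspa1b. Hspa4, which differed little, was also among them. Of these lists' members, Hmox1 alone passed the test over all rows. The members of a list are not replicates, and all are read against the same High libraries.

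Within the NRF2 list the rows below spanned several branches of the response. Besides Hmox1 and Sqstm1 they included, chosen after their values were seen, Srxn1 (sulfiredoxin) at 321 and 419 CPM in High and 35.9 and 43.3 CPM in Low, and Txnrd1 (thioredoxin reductase) at 982 and 796 CPM in High against 419 and 333 CPM in Low. Slc7a11, the cystine transporter, measured 397 and 587 CPM in High and 167 and 13.7 CPM in Low. Each of the 3 had no overlap between films, though the Low libraries of Slc7a11 lay far apart. Among the most abundant members, 2 lay on the other side, namely Txn1 (thioredoxin) at 3412 and 2795 CPM in High against 5039 and 3932 CPM in Low and Fth1 (ferritin heavy chain) at 3568 and 3679 CPM in High against 3910.2 and 4751 CPM in Low. The direction was therefore not shared by the whole list. The summed level was 20605 and 19899.7 CPM in High against 13740.3 and 14949.9 CPM in Low. Hmox1 (film means of 5950 CPM in High and 1230 CPM in Low) and Sqstm1 (2381 and 879 CPM) carried the fall in this sum. Both are among the rows chosen for no overlap and small p.

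In the heat shock list the rows below included HSP70, HSP90, HSP110 and HSP40 chaperones. Dnaja1, an HSP40 chosen after its values were seen, measured 845 and 843 CPM in High and 329 and 413 CPM in Low. Hspa4, an HSP110-related chaperone and the most abundant member by the mean of both films, differed little, with 2869.7 and 2980.3 CPM in High and 2702 and 2749 CPM in Low (-0.10 ± 0.18). The mitochondrial chaperonin pair took the other side, Hspe1 at 893 and 728 CPM in High against 1331 and 1346 CPM in Low and Hspd1, chosen after its values were seen, at 582 and 359 CPM in High against 686 and 729 CPM in Low. Summed over the list, High held 15054 and 13825 CPM and Low 8790.3 and 9676 CPM. Hspa1b, Hsph1 and the HSP90 genes, chosen for no overlap and small p, carried most of this gap.

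The integrated stress response list had 1 row above, Phgdh of serine synthesis, at 134 and 123 CPM in High and 148 and 260.0 CPM in Low. Among its abundant members, Nars, an aminoacyl-tRNA synthetase, was at 478 and 525 CPM in High against 294 and 187 CPM in Low, while Atf4 itself (499 and 412 CPM in High against 166 and 468 CPM in Low) and Gars, another synthetase (429.8 and 377 CPM in High against 277 and 553 CPM in Low), overlapped between films. Sharper gaps were seen, among rows chosen after their values were seen, in Ppp1r15a (GADD34, a phosphatase subunit that restores translation) at 303 and 269.9 CPM in High and 32 and 12.7 CPM in Low, and in Sesn2 (sestrin 2) at 229.6 and 517 CPM in High against 0 and 12.5 CPM in Low. The summed level was 5463 and 4392 CPM in High and 1959 and 2668 CPM in Low. Chaperones of the endoplasmic reticulum showed less of a split, with 6 of 17 below, 3 above and a median of -0.23, and Hspa5 (BiP), their most abundant member, overlapped at 1314 and 1273 CPM in High and 911 and 1291 CPM in Low. Calr, Canx and P4hb, chaperones and a disulfide isomerase, had log2 fold changes of -0.17, -0.77 and -0.29 with SEs of 0.30, 0.37 and 0.35.

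p53 targets and immediate early genes leaned the same way. Of 14 p53 targets 7 lay below and 1 above, with a median of -0.68. After Cdkn1a, the abundant members were Bbc3 (the PUMA cell death protein) at 655 and 319 CPM in High and 238 and 246 CPM in Low, Mdm2 (the ligase that degrades p53) at 558 and 446 CPM in High against 240.3 and 379 CPM in Low, and Ccng1 (cyclin G1), which overlapped at 782 and 714 CPM in High against 726 and 708 CPM in Low. Among immediate early genes 10 of 19 (52.6%) lay below and 2 above, with a median of -1.17. Ier2, an early response gene, stood at 976 and 443 CPM in High against 361 and 279.7 CPM in Low, and Ier3, another, at 727 and 780.3 CPM in High against 234 and 343 CPM in Low. Jun, an AP-1 subunit, was on the other side at 558 and 383 CPM in High against 677 and 597 CPM in Low, and Ier5 overlapped at 744 and 660.1 CPM in High against 382 and 791 CPM in Low. Fos and Fosl1 are other AP-1 subunits, chosen after their values were seen. Fos measured 289 and 197 CPM in High against 0 and 22.6 CPM in Low, and Fosl1 406 and 589 CPM in High against 24.8 and 122 CPM in Low, both without overlap. Neither passed the test over all rows.

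**Figure D4:**
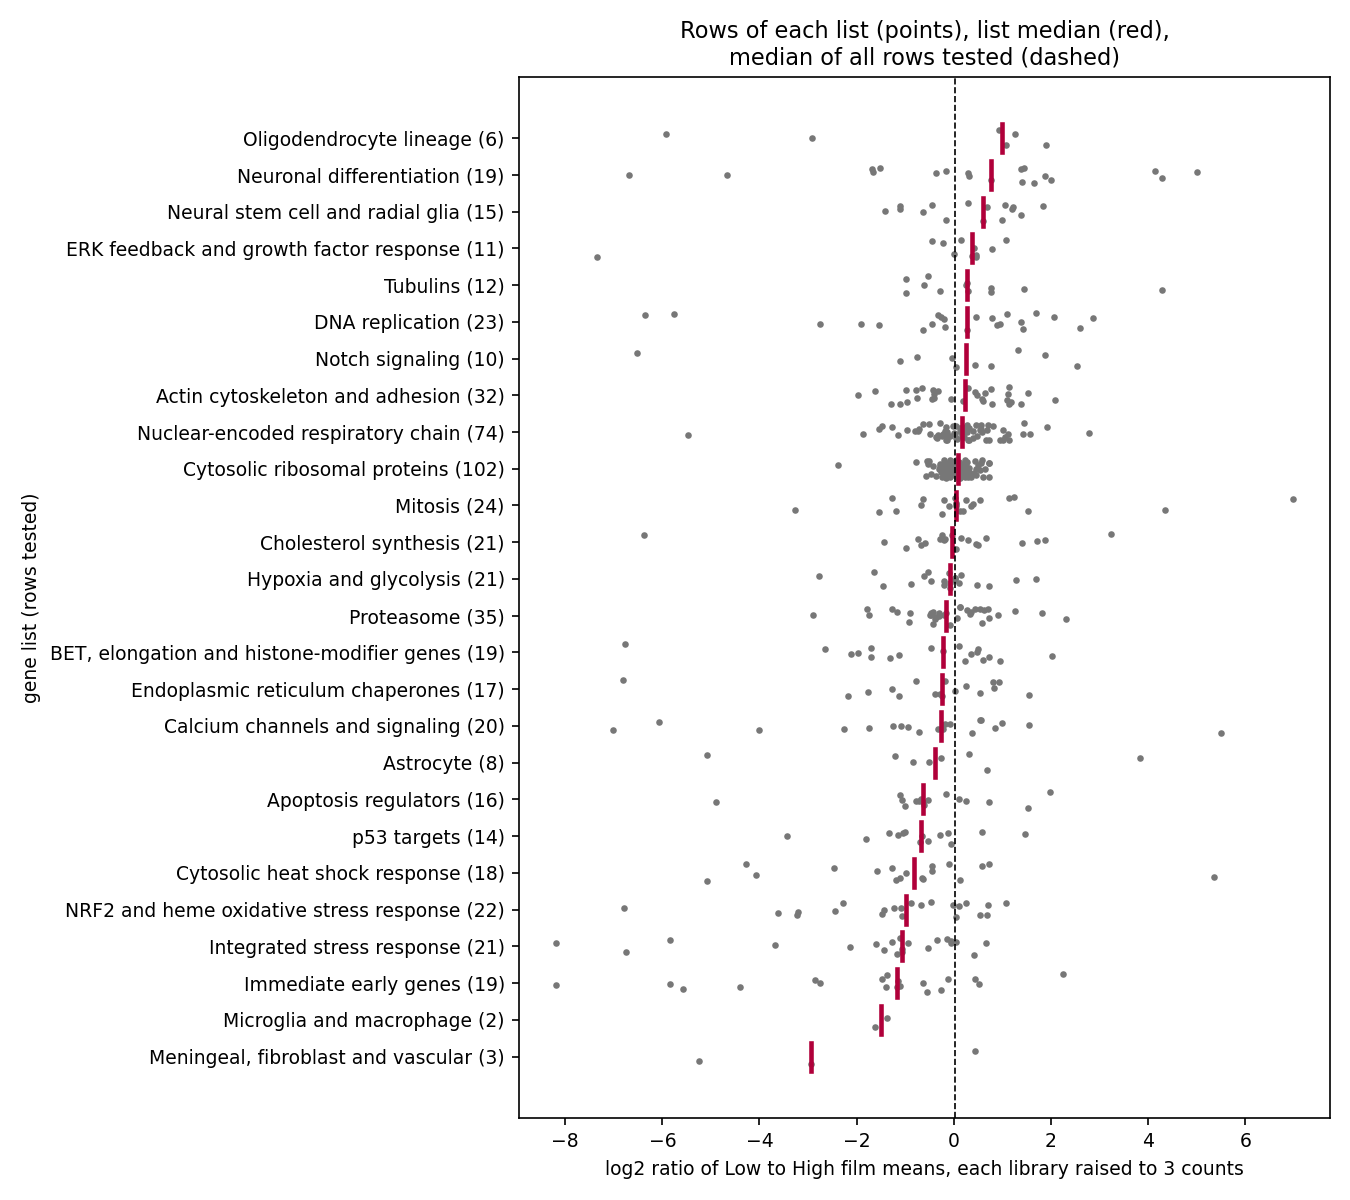
Log2 ratio of Low to High film means, with each library raised to 3 counts (x axis), for the tested rows of 26 gene lists (y axis, number of rows in parentheses). Points are rows, the red tick is the list median, and the dashed line is the median of all rows tested (0.017), with the immediate early gene median at -1.17 and the neuronal median at 0.76.

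Lists of neural identity leaned the other way. Of 15 neural stem cell and radial glia rows, 7 (46.7%) had both Low libraries above and 1 below, with a median of 0.60. Sox9, a gliogenic and stem cell factor, was at 722 and 758 CPM in High and 1160.0 and 1791 CPM in Low, Lhx2, a cortical patterning factor, at 127 and 95.2 CPM in High against 371 and 418 CPM in Low, and Vim (vimentin) at 2611 and 2417 CPM in High against 3121 and 4496 CPM in Low. The row below was Fabp7, a radial glial lipid carrier, at 249 and 275 CPM in High and 51.7 and 145 CPM in Low. The list summed to 4889 and 4726 CPM in High and 6775 and 8834 CPM in Low, with no member past the test.

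For neuronal differentiation 8 of 19 rows (42.1%) lay above and 1 below, with a median of 0.76. After Tuba1a and Basp1, the abundant members were Tubb2b, a beta-tubulin of young neurons, at 801 and 554 CPM in High and 1081 and 1218 CPM in Low, and Marcks, an actin-binding kinase substrate, at 492 and 189 CPM in High against 935 and 865 CPM in Low. These 4 rows carried most of the list's summed level of 3866 and 2871 CPM in High and 7940.4 and 7227 CPM in Low. The genes most used to mark young neurons were barely read. Tubb3 had 0 counts in both High libraries and 96 and 72 in Low, Map2 had 0 and 0 against 138 and 20, and Dcx, 0 and 1 against 0 and 85. Others were read in a single High library and in no Low library, with Mapt at 469 and 0 counts in High, Elavl3 at 100 and 0, Stmn2 at 60 and 0 and Ncam1 at 0 and 98. Neurod6 was at 0 in all 4 libraries.

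Oligodendrocyte lineage rows were above in 4 of the 6 tested and below in none (median 1.0), out of 15 in the table. Olig2, a lineage factor also present in forebrain progenitors, had 209 and 219 CPM in High and 422 and 473 CPM in Low, and Olig1 had 179 and 217 CPM in High against 491 and 267 CPM in Low. Sox8, a SOX family transcription factor, measured 40.1 and 37.6 CPM in High against 63.7 and 226 CPM in Low. Cnp, a myelin enzyme, measured 31.6 and 31.2 CPM in High against 110.0 and 40 CPM in Low. The Low libraries of Sox8 lay far apart, and 6 rows of the list were at 0 in all 4 libraries. Astrocyte rows overlapped in 8 of 8 tested (median -0.39), among them Gja1 (connexin 43) at 113 and 52.7 CPM in High against 53.6 and 152 CPM in Low, Glul (glutamine synthetase) at 158 and 26.2 CPM in High against 56.8 and 45.3 CPM in Low, Aldoc (aldolase C) at 60.4 and 30.3 CPM in High against 94.8 and 50.9 CPM in Low and S100b (a calcium-binding protein) at 0 and 88.8 CPM in High against 9.2 and 65 CPM in Low. Of the markers of other cells, Cd68, of macrophages, was at 45.9 and 0 CPM in High against 17.5 and 0 CPM in Low. Acta2, a smooth muscle actin, was at 69.4 and 123 CPM in High against 0 and 24.6 CPM in Low, Tagln, an actin-binding protein of the same cells, at 46.9 and 0 CPM in High against 63.7 and 0 CPM in Low, and the collagen gene Col1a1 at 9.52 and 33.8 CPM in High against 0 and 0.205 CPM in Low.

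**Figure D5:**
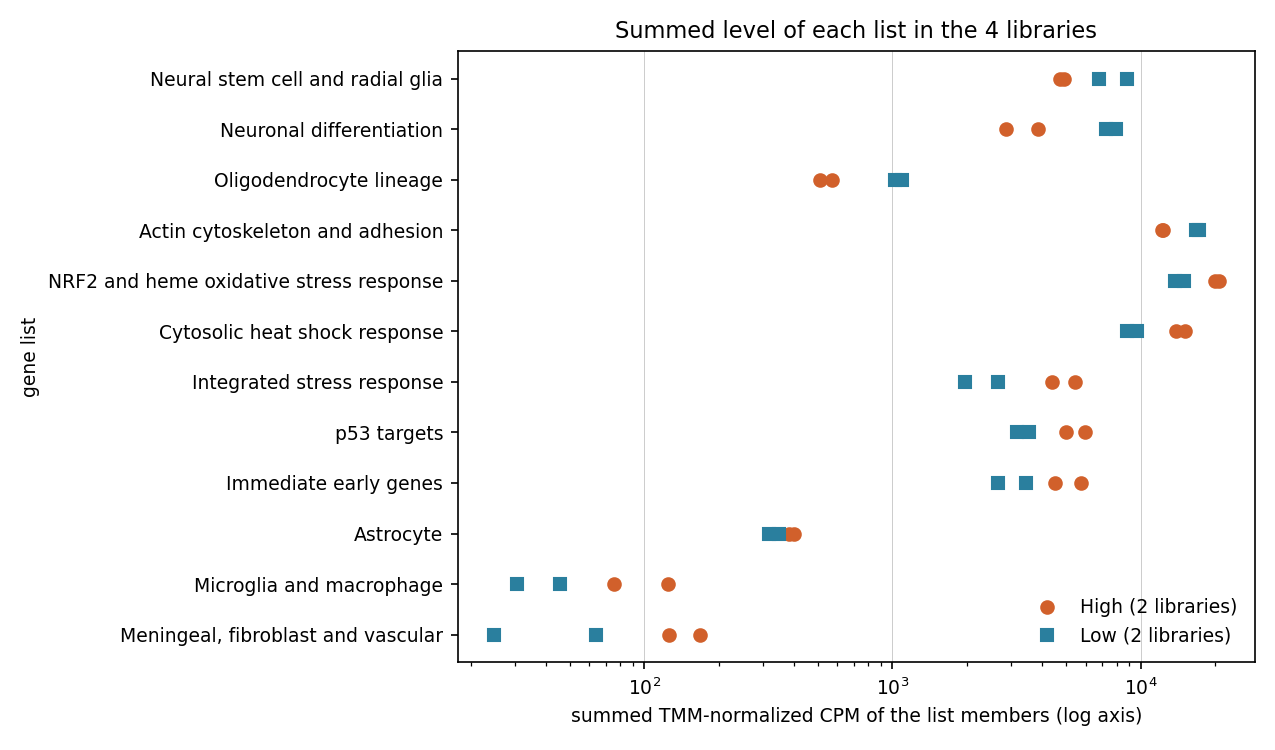
Summed TMM-normalized CPM (x axis, log scale) of the members of 12 gene lists (y axis) in each library, with circles for High and squares for Low. The 4 upper lists have both Low libraries above both High libraries and the lists under them have both below, with the microglial sums at 30.8 to 125 CPM. The 12 lists were picked from 27, and sums of some lists not drawn overlapped between films. Cholesterol synthesis was one, at 6092 and 5178 CPM in High and 5599 and 6237 CPM in Low.

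The cytoskeleton was divided between its genes. In the actin and adhesion list 13 of 32 rows (40.6%) lay above and 10 (31.2%) below, with a median of 0.24. Both shares exceeded the background over all rows tested, which includes thinly read rows. Among rows with a mean of 3000 counts or more, the share above was 34.9% and the share below 17.3%. Both Actg1 rows, which share reads, are counted among the 13. Above were the Actg1 rows and Tmsb4x, a thymosin that holds actin monomers, at 1980.0 and 1225 CPM in High and 2235 and 3244 CPM in Low, and, chosen after its values were seen, its relative Tmsb10 at 414 and 412 CPM in High against 903 and 899 CPM in Low. Anxa6 (annexin A6), also chosen after its values were seen, had 98.5 and 116 CPM in High against 328 and 233 CPM in Low. On the other side was Actb, beta-actin, at 634 and 999 CPM in High and 549.5 and 289 CPM in Low, while Arpc3, a subunit of the ARP2/3 complex, overlapped at 597 and 744 CPM in High against 724 and 1139 CPM in Low. The beta- and gamma-actin rows thus lay on opposite sides between the same libraries. Of 12 tubulin rows 6 lay above and 2 below, with a median of 0.27. Tubb5, the most abundant, stood at 2579 and 2317 CPM in High and 4214 and 4115 CPM in Low, and Tuba1b at 2559 and 1895 CPM in High against 2639 and 2765 CPM in Low. Reads that align to several tubulin or actin genes leave the level of each uncertain.

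Chromatin and elongation genes were read because Brd2 is one of them. Of 19 rows 8 (42.1%) lay below and 4 above, with a median of -0.22. Brd3, a BET protein chosen after its values were seen, was at 92 and 238 CPM in High against 32.9 and 68.1 CPM in Low. Like Brd2 (-2.65 ± 0.32) it was below in both Low libraries (-1.71 ± 1.49), and Brd2 alone passed the test. Ezh2, the Polycomb methyltransferase, also chosen after its values were seen, was on the other side at 45.6 and 81.2 CPM in High and 219.7 and 292 CPM in Low. Hdac2, a histone deacetylase, overlapped at 224 and 359.9 CPM in High against 338 and 409 CPM in Low, and Larp7, which binds the 7SK RNA, lay above at 251 and 161 CPM in High against 347 and 329 CPM in Low.

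Calcium and Notch genes, which the study followed, had shares near the background. Of 20 calcium channel and signalling rows 5 lay above, 4 below and 11 overlapped, with a median of -0.27. Calm2, counted in 2 rows, had 1286 and 1182 CPM in High and 2228 and 2243 CPM in Low in the more abundant row and 312 and 316 CPM in High against 125 and 378 CPM in Low in the other, while S100a10, an annexin partner, overlapped at 1293 and 1067 CPM in High against 1278 and 958 CPM in Low. Of 10 Notch rows 2 lay above, 1 below and 7 overlapped (median 0.24), and 6 of the 19 rows in the table were at 0 in all 4 libraries. The receptor Notch2 had 79.9 and 93.5 CPM in High against 53.8 and 182 CPM in Low, and Adam10, a protease that cleaves Notch, 58.6 and 142 CPM in High against 45.1 and 73.4 CPM in Low. Hes1, a target, had 150.4 and 26.2 CPM in High against 63.3 and 18.7 CPM in Low, and Hes6, an antagonist of Hes1, 15.3 and 32.3 CPM in High against 179 and 95.3 CPM in Low. Of these 4, Hes6 was separated by film and the others overlapped. Dll1, the ligand below on Low and chosen after its values were seen, had 193 and 195 counts in High and 0 in both Low libraries.

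Growth factor feedback genes had 2 of 11 rows above and 2 below, with a median of 0.37. Etv5, an ERK-induced factor, was above with Dusp6 at 578 and 729 CPM in High and 829.9 and 978 CPM in Low, Phlda1, a regulator of survival signalling, was below at 1589 and 1673 CPM in High against 1141 and 1259.6 CPM in Low, and Ccnd1, cyclin D1, overlapped at 3549 and 4887 CPM in High against 4356 and 4046 CPM in Low. Rows of this list were therefore on both sides. Apoptosis regulators had 5 of 16 below and 3 above (median -0.63). Birc5, survivin, lay above at 182 and 157 CPM in High and 623 and 354 CPM in Low, Bnip3l, a mitophagy receptor, below at 354 and 219.5 CPM in High against 183 and 189.9 CPM in Low, and Cycs, cytochrome c, above at 170.2 and 151 CPM in High against 194 and 189 CPM in Low. A list of 13 genes that the study placed under the apoptotic process was chosen on these same libraries and is not independent evidence of its direction. It had 9 rows below and 4 above with none overlapping (median -1.44), and its 4 most abundant members were Hmox1, Hsp90aa1, Gas6 and Sqstm1, described above.

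Some rows were read on one film and hardly on the other. Of the 90 rows with at least 100 counts in both Low libraries and at most 3 in both High libraries, the 8 of highest count led with Elk3, an ETS factor, at 591 and 599 counts in Low and 0 in both High libraries. Raised to 3 counts in each High library, this is an at least 140-fold higher CPM. The others were Tmem164 (671 and 506 counts, at least 137-fold), Pigbos1 (945 and 163, at least 123-fold), Cdyl2, a chromodomain protein (737 and 321, at least 121-fold), and Gtf2f2, a subunit of the initiation factor TFIIF (277 and 637, at least 111-fold). Ly6e (566 and 560), Slc35d3 (348 and 664) and Nf1, the Ras regulator neurofibromin (611 and 350), had 2, 3 and 3 counts in 1 High library and 0 in the other. None of the 8 passed the test, the smallest adjusted p being 0.732 for Pigbos1 by edgeR.

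Of the 52 rows read on High alone, Atf3, the stress-induced ATF factor, came first with 991 and 291 counts in High and 0 in both Low libraries, an at least 291-fold lower level in Low. Pdpk1, the kinase that activates AKT, had 415 and 475 counts (at least 211-fold lower), Rev3l, a subunit of a translesion polymerase, 411 and 438 (at least 201-fold), and Zcchc10, 332 and 369 (at least 166-fold). Ilf2, a double-stranded RNA binding protein, had 169 and 409 counts (at least 141-fold), and Ppm1d, the p53-induced phosphatase WIP1, 169 and 407 (at least 140-fold). Snx14 (157 and 452) and Rps19bp1 (271 and 323) had 0 and 1 and 0 and 2 counts in Low. The adjusted p of Atf3 was 0.54 and that of the other 7 was 0.897, by edgeR. Beside these rows stands the measure given above, that 17.9% of rows in Low and 17.4% in High with 100 counts in 1 library had at most 3 in the replicate.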

How the data were processed

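The authors mapped the single-end QuantSeq reads with Bowtie2 and used bedtools to count, for every gene row, alignments that were unique as well as multiple. The counts deposited for each library are these whole numbers, not normalized, on 17048 rows. The submitters' processing notes name the build rn6, and no versions are given in the sources used here. Reads that align to several genes are counted on each, so paralogs are uncertain, and counts are not independent molecules.

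From these counts, the 7 ribosomal RNA rows (Rn45s, Rn18s, Rn28s and Rn5-8s) were left out, and filterByExpr of edgeR 4.0.16 (R 4.3.3) kept 7731 of the 9559 rows with a count. TMM-scaled counts of all 6 libraries entered 1 quasi-likelihood fit of 3 film means, with the contrast Low minus High, Benjamini-Hochberg adjustment over all rows and a threshold of 0.05. The SE of a log2 fold change was derived from the test, as its absolute value divided by the square root of the F statistic. For 1 row, 2 libraries against 2 allow no exact permutation p (two-sided) under 0.333. Alternatives were other scalings, filters and libraries, the replicate number as a block, limma 3.58.1 (voom) and DESeq2 1.42.0.

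Named are the rows past the threshold, the 12 rows of smallest p in each direction among those with at least 100 counts in all 4 libraries and no overlap, the 8 of highest count read on 1 film alone in each direction, and up to 4 of highest level in each of 27 lists. Some of these rows are not reported here. Other names were chosen after their values were seen. Members and lists were chosen with earlier results of these data known. Of the tested symbols, 5983 of 7677 had a promoter in the RefSeq table (GRCr8), and columns of other samples numbered 0.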

Additional observations from a re-analysis of the deposited data

Results flagged for a closer look

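Ribosomal RNA rows, which were used only in an alternative that kept them, held a large part of the counts in libraries of polyadenylated RNA. Their share was 26.1% in High replicate 1 and 38.4% in High replicate 2, against 7.16% in Low replicate 1 and 7.64% in Low replicate 2. They were singled out as a signal in rows outside the measurement, above the level that a count of 0 would allow. The difference between films was not tested, and with 2 libraries a film no value was examined as an outlier within its group.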

How the results depend on the processing

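The number of rows called was 2 (0 higher, 2 lower) and depended strongly on the filter and the tool. It stayed at 2 with RLE or library-size scaling. It was 4 (0 higher, 4 lower) with ribosomal RNA rows kept, 37 (26 higher, 11 lower) with no filter, 24 (12 higher, 12 lower) at a mean of at least 1000 counts, 287 (142 higher, 145 lower) with DESeq2, 19 (12 higher, 7 lower) with limma-voom, and 0 with the described rows alone or with the Low and High libraries alone, where 369 and 576 rows had an unadjusted p under 0.05. Without single libraries, each fit assuming that a lone library varies like the others, it ran from 19 to 72 (10 to 31 higher, 7 to 41 lower). It was 33 without High replicate 1, 24 without High replicate 2, 34 and 19 without Medium replicates 1 and 2, and 33 and 72 without Low replicates 1 and 2. The cause of these shifts was not tested.

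With the replicate number as a block, 27 rows were called (17 higher, 10 lower). The numbers do not pair the libraries, since the correlation of the deviations of Low and High replicate 1 from their film means was -0.000666, and those with Medium were 0.0121 and 0.00350.

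Hmox1 and Brd2 were called in 15 of 17 alternatives each. Of 408 values (24 rows of smallest p, 17 alternatives), 242 stayed on their side of the threshold, 162 moved past it, 4 lost it and 0 changed direction. The described rows with no overlap numbered 1272 higher and 1062 lower (25.8% and 21.5% of 4929, against 19.5% and 18.0% of all rows tested), and ran from 1027 to 1370 and from 756 to 1234 over 5 alternatives. Among rows with at least 100 counts in all 4 libraries, replicates differed more at a mean under 1000 counts than above it. This limits the differences that can be shown in rows of fewer counts.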

Other observations

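Gene groups of growth and metabolism were mostly close to the background of 19.5% of rows above and 18.0% below on Low. Of 23 DNA replication rows 6 lay above and 3 below, with a median log2 ratio of 0.26, and of 24 mitosis rows 5 lay above and 2 below (median 0.05). Pcna, the sliding clamp, overlapped at 202 and 239 CPM in High and 310.3 and 219 CPM in Low, as did Mcm6 of the replicative helicase at 179.9 and 118 CPM in High against 374 and 177 CPM in Low and Rfc3 of the clamp loader at 163 and 68.7 CPM in High against 236 and 162 CPM in Low. Rrm2, ribonucleotide reductase, was above at 127 and 44.5 CPM in High against 154 and 291 CPM in Low. Among mitotic rows Cdc20, an activator of the anaphase-promoting complex, was above at 291 and 258 CPM in High and 674 and 531 CPM in Low, Smc4 of condensin was above at 415 and 349 CPM in High against 489 and 482 CPM in Low, and Hmgb2, a chromatin protein, overlapped at 429 and 312 CPM in High against 358 and 339 CPM in Low. Ccna2 and Top2a, chosen after their values were seen, lay on opposite sides. Ccna2 (cyclin A2) had 0 and 6 counts in High and 765 and 879 in Low, and Top2a (topoisomerase II alpha) had 609 and 491 counts in High and 2 and 146 in Low. No row of these groups passed the test.

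Cholesterol synthesis had 5 of 21 rows above and 3 below (median -0.04). Idi1, an isoprenoid isomerase, overlapped at 2395 and 1491 CPM in High and 1506 and 1785 CPM in Low, and Msmo1 and Cyp51, which demethylate sterols, were below at 875 and 755 CPM in High against 689 and 732 CPM in Low and at 727 and 674 CPM in High against 521 and 635 CPM in Low. Hypoxia and glycolysis had 2 of 21 rows above and 5 below (median -0.08), with Pgk1, Pgam1 and Gapdh overlapping and Aldoa below. These 4 glycolytic enzymes had log2 fold changes of -0.21 ± 0.31, -0.21 ± 0.30, 0.03 ± 0.40 and -0.47 ± 0.38 (SE).

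Rows of large complexes are given against the 19.5% above and 18.0% below over all rows tested. Of 102 cytosolic ribosomal protein rows 23 lay above and 16 below (median 0.08), with Rpl22, Rps14 (row 2), Rplp1 and Rpl34 at log2 fold changes of 0.45, 0.05, -0.05 and 0.28. Nuclear-encoded respiratory chain rows were above in 18 of 74 and below in 8 (median 0.17), with Atp5g3, Ndufa4 and Atp5l at 0.67, 0.18 and 0.14, beside the larger 1.44 of Cox7c. Proteasome rows were above in 10 of 35 (28.6%) and below in 9 (25.7%), leaving 16 that overlapped (median -0.16), with Psma2, Psmb4, Psmd1 and Psma7 at -0.16, 0.32, 0.12 and 0.72.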
